A study of Mus musculus with 30 samples.

Results

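Hearts of mice with the p.S55L form of CHCHD10 were compared on the day of delivery and without pregnancy, across all genes. The comparison used 9 libraries out of 30 deposited for the series, taken by their titles. S55L PP (postpartum) mice were bred at 65 days of age and killed at postpartum day 0 (n = 4 libraries), and S55L naive mice were aged to 100 days instead (n = 5). Of the 5 deposited S55L PP columns, columns 1 and 2 did not differ at a single gene and were used once, as PP 1. Both groups carry the mutation, so it is shared and not compared. WT mice under the same conditions (5 naive libraries and 4 PP libraries, an identical pair again used once) were in the same fit. Their values are given beside those of the mutant. A difference between the genotypes was tested for single genes only, not for gene lists. The sources used here give no age at death for the PP mice, no sex, strain or zygosity, and do not say that each library is a separate mouse. Age and pregnancy therefore cannot be told apart, and p-values measure how far these libraries spread, which may be technical.

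CHCHD10 is a small protein of the mitochondrial intermembrane space that works with CHCHD2, and its mutant forms cause dominant mitochondrial disease of muscle, heart and nerve. In hearts with failing mitochondria the integrated stress response is typically active: the factor ATF4 turns on amino acid and one-carbon enzymes and the secreted hormones GDF15 and FGF21. Pregnancy imposes a volume load on the heart, which enlarges reversibly, shifts its fuel use and receives hormonal and angiogenic signals from the placenta and pituitary. Around delivery these signals drop within a short time, and this is the window in which peripartum cardiomyopathy arises.

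Each library counted reads at the 3′ ends of transcripts from heart RNA. Reads on genes ranged from 3369420 to 5131316 in the naive libraries and from 2755500 to 4157372 in the PP libraries. Values are given as CPM, the reads of a gene per 1000000 reads on genes, with library sizes scaled by trimmed means. The summed CPM of 13 ventricular cardiomyocyte markers was 50450 to 70740 in the naive and 45660 to 58890 in the PP libraries. Xist was counted in every one of the 9 libraries (683 to 1188 reads), and the Y-linked genes Kdm5d, Eif2s3y and Uty had no read in any of them, while Ddx3y had 0 to 3 reads. Chchd10 itself, the mutated gene, was at 4863, 3997, 5544, 4340 and 3761 CPM in naive 1 to 5 and at 3037, 4018, 3605 and 6021 CPM in PP 1, 3, 4 and 5. Its groups overlapped, with a log2 difference of -0.11 (95% interval -0.52 to 0.30). Counts per gene do not show the mutated codon.

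The PP libraries were less alike than the naive ones, which bears on every result that follows. Among 5339 genes that averaged 20 CPM or more, 278 lay over 2-fold from the median of the other 8 libraries in PP 1 and 111 did so in PP 5, against 20 in PP 3, 18 in PP 4 and 8 to 56 in the naive libraries. The SD of log2 CPM was larger in the PP group for 70.1% of these genes, with a median of 0.264 against 0.190. Mitochondrially encoded RNA took 13.9% to 15.2% of the reads on genes in naive hearts, 14.3% in PP 3 and 15.5% in PP 4, but 9.82% in PP 1 and 9.52% in PP 5. By the well names in the column headers, PP 5 and PP 1 (taken as the first of its 2 wells) come from the outer rows of the plate and all other S55L libraries from inner rows. In WT, too, outer-row libraries (1 naive and 2 PP) had less mitochondrial RNA than inner-row ones (16.8% to 19.2% against 22.1% to 24.6%). One of them, WT PP 1 at 19.2%, is an identical pair and was likewise taken as the first of its 2 wells. What part the plate position has in any result was not tested. The main gene lists are therefore also given without the outer-row libraries and within plate column 2. Of the S55L libraries that column holds all naive ones and PP 5 alone, so its fit is given as medians without counts. PP 1, PP 3 and PP 4 come from column 3. In the fit without the outer-row libraries, plate column and delivery therefore cannot be told apart. WT libraries of all rows and columns stayed in both fits.

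**Figure D1:**
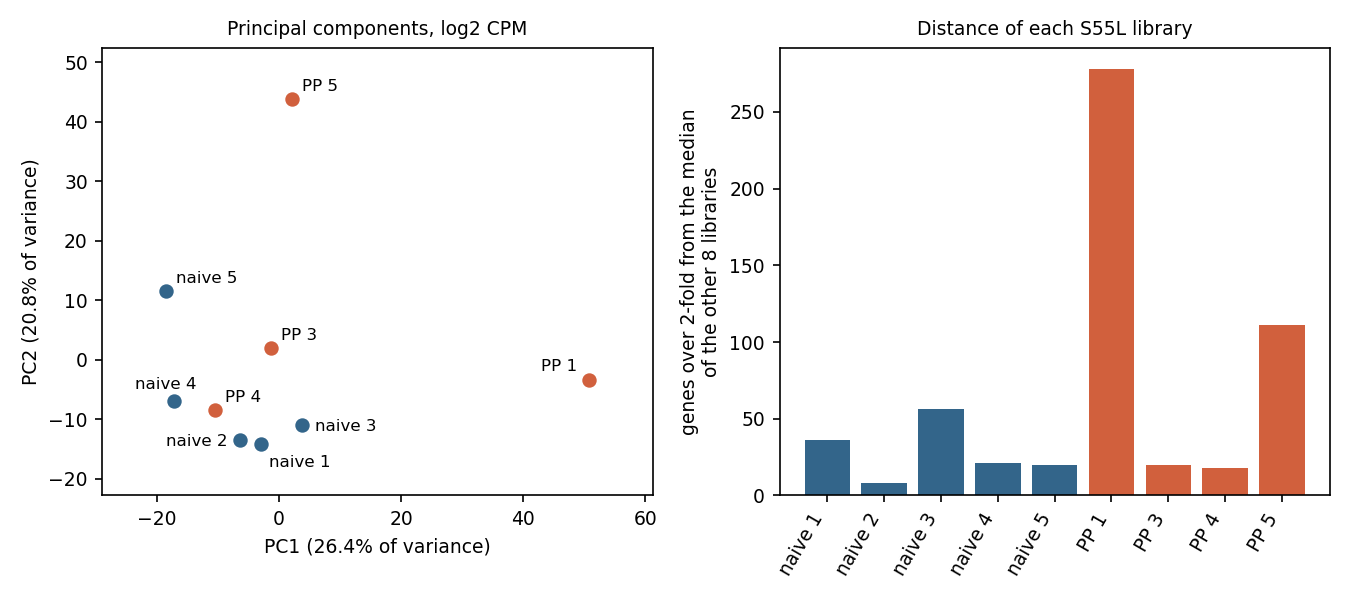
Left, the first 2 principal components of log2 CPM over the 9 S55L libraries, with the share of variance on each axis; right, for each library, the number of genes (of 5339) that differ over 2-fold from the median of the other 8. PP 1 stands apart on the first axis and PP 5 on the second, and they have the tallest bars, 278 and 111 genes.

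No gene passed an adjusted p of 0.05 between S55L PP and S55L naive hearts. In edgeR's quasi-likelihood test, 0 of 11945 genes (0%) were called, and the lowest adjusted p, 0.069, was shared by Cd74, Serpina3n and H2-Eb1. At an unadjusted p under 0.05 there were 747 genes (6.25% of those tested), 418 higher (3.5%) and 329 lower (2.75%) after delivery. With total counts as the scaling that split was 584 higher and 219 lower. All 4 PP libraries lay above all 5 naive libraries for 137 genes (1.15%) and below them for 132 genes (1.11%). On the same counts DESeq2 called 18 genes and limma voom with quality weights called 22, with 12 in both. Without the outer-row S55L libraries edgeR called 0 of 12452 genes. In that fit 364 (2.92%) had an unadjusted p under 0.05, 187 higher and 177 lower. The 95% interval of the log2 difference lay within 1 of 0 for 83.8% of all genes, and for 95.4% of the 5339 genes that averaged 20 CPM or more. In WT hearts the same contrast called 2 genes (0.0167%), and the difference between the S55L and the WT change was called for 0 genes (0%). The rule for naming called genes found none. The genes named below are therefore a panel of 24 listed at the outset and genes chosen after their values were seen. Of the panel, 23 were found by symbol among the genes tested, all but Ddit3. The genes chosen after their values were seen were taken by lowest p or as members of the gene lists.

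The MHC class II genes were the list furthest from 0 (median log2 difference -1.72 over the 5 of 7 members tested), all lower on average in S55L PP hearts. These proteins present peptides to CD4 T cells: H2-Aa and H2-Ab1 form one dimer, H2-Eb1 is the beta chain of another, Cd74 is the invariant chain that guards the groove, and H2-DMa helps load the peptide. Their promoters are known for a shared module in which an X box, bound by the RFX complex, lies upstream of a Y box, bound by NF-Y, with CIITA as the coactivator. To show that module, the 120 bases before the start of 2 members follow, from RefSeq on GRCm38.p6, with GCAAC of the X box and CTGATTGG of the Y box in capitals.
H2-Aa (chr17:34287824-34287943, minus strand): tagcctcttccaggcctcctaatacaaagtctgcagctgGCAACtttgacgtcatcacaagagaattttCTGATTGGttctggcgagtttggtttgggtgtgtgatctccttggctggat
H2-Eb1 (chr17:34305747-34305866, plus strand): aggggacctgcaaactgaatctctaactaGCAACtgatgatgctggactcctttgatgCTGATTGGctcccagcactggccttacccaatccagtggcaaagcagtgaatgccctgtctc
CTGATTGG begins 51 bases before the start in H2-Aa and 62 in H2-Eb1, and 25 and 24 bases separate it from GCAAC. On either strand of the 300 bases around each of 32851 promoters in that table, CTGATTGG occurs in 4.1%, GCAAC in 35.2%, and GCAAC followed within 45 bases by CTGATTGG in 0.189%. The 120 bases before H2-DMa, also read, do not hold CTGATTGG. A match of letters, or the lack of one in this window, is a description and shows nothing about binding.

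H2-Aa was the most abundant of the 5, at 174, 335, 366, 272 and 280 CPM in naive 1 to 5 and 52.5, 90.1, 138 and 66.1 CPM in PP 1, 3, 4 and 5. Every PP library lay below every naive one (log2 difference -1.72, SE 0.41, adjusted p = 0.41). H2-Ab1, its partner, was at 46.3, 91.5, 117, 71.4 and 78.9 CPM against 15.1, 22.7, 38.8 and 18.1 CPM. Again the groups did not overlap (-1.77, SE 0.36, adjusted p = 0.16), and PP 4 was the highest PP library for both chains. H2-Eb1 read 64.0, 99.7, 100.3, 76.2 and 77.2 CPM in naive and 31.6, 30.6, 38.0 and 24.6 CPM in PP hearts (-1.42, SE 0.26, adjusted p = 0.069 in edgeR, 0.00057 in DESeq2 and 0.0023 in voom). Cd74 read 21.7, 33.1, 59.3, 21.6 and 20.1 CPM against 8.66, 8.76, 8.62 and 9.66 CPM, so that the PP libraries were nearly equal while naive 3 was far above its group (-1.80, SE 0.32, adjusted p = 0.069). H2-DMa overlapped between the groups, since PP 5 (9.98 CPM) was among the highest of all 9 libraries (-0.66, SE 0.34, adjusted p = 0.80). Without the outer-row libraries the median of the list was -1.32, with 5 of 5 members lower at an unadjusted p under 0.05. Within plate column 2 it was -1.77. The other members, H2-DMb1 and Ciita, which encodes the coactivator, were under the count filter, with 54 and 47 reads summed over the naive libraries and 20 and 9 over the PP libraries.

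In WT hearts the MHC class II median was -0.30. H2-Aa spanned 27.8 to 129 CPM in WT naive and 26.2 to 95.4 CPM in WT PP hearts, around the S55L PP range. The change in S55L minus that in WT was -1.67 for Cd74 (SE 0.47) and -1.41 for H2-Aa (SE 0.58), each with an adjusted p of 1.0, so the difference between genotypes was not called. Markers of cells that carry class II were read beside it. The 8 dendritic cell markers under the count filter, among them Flt3, Itgax and Xcr1, summed to 6.82 to 10.7 CPM in naive and 3.35 to 4.04 CPM in PP libraries, from 24 to 54 and 12 to 18 reads. With the remaining marker, Zbtb46, which differed by -0.24, the 9 markers summed to 20.6 to 34.2 CPM and 15.9 to 28.3 CPM, which overlap. The 4 B cell markers summed to 0.71 to 2.27 CPM against 0.31 to 1.96 CPM. Macrophage markers summed to 1756 to 2113 CPM and 1554 to 2765 CPM, with a median difference of 0.09 over 13 genes in S55L and 0.62 in WT. In S55L, 10 of these genes were higher and 3 lower on average. Adgre1 and Tyrobp, each 0.39 higher, were the 2 with an unadjusted p under 0.05, against 0 without the outer-row libraries. Lymphocyte markers summed to 3.34 to 6.02 CPM and 2.81 to 5.03 CPM. In whole-heart RNA, fewer cells of a type and less RNA per cell cannot be told apart, and the part of these cells in the class II values was not tested.

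**Figure D2:**
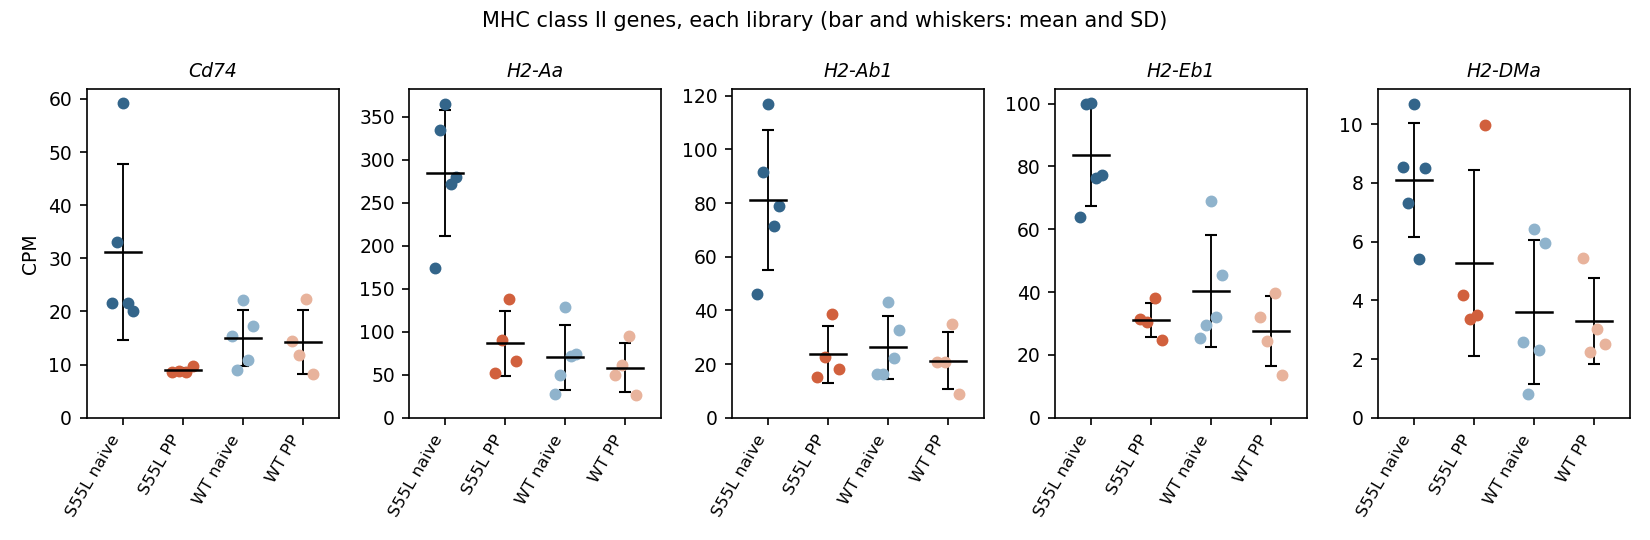
CPM of the 5 tested MHC class II genes in each library of the 4 groups, with the mean (bar) and SD (whiskers). For Cd74, H2-Aa, H2-Ab1 and H2-Eb1 all S55L PP libraries lie below all S55L naive libraries; the WT groups overlap for all 5 genes.

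Some acute-phase and complement genes were higher on average after delivery. Of 24 listed, 13 were tested, 8 higher and 5 lower on average, with a median of 0.53 in S55L and 0.48 in WT; 5 were higher and 2 lower at an unadjusted p under 0.05. The median was 0.31 without the outer-row libraries and 0.08 within plate column 2. Serpina3n, a secreted protease inhibitor of the acute phase, stood at 13.8, 12.5, 18.9, 8.81 and 15.1 CPM in naive hearts and 35.2, 58.0, 28.8 and 32.4 CPM in PP hearts. All PP libraries exceeded all naive ones (1.48, SE 0.28, adjusted p = 0.069 in edgeR, 0.0067 in DESeq2 and 7.4e-05 in voom), and the difference was 1.65 without the outer-row libraries. C3, the central complement protein, was at 77.3, 62.7, 48.6, 57.1 and 50.4 CPM against 95.6, 123, 105 and 93.8 CPM, again without overlap (0.82, SE 0.19, adjusted p = 0.21). C4b, which acts just upstream of C3, overlapped (0.92, SE 0.29), and Osmr, a receptor chain for oncostatin M, did not (0.57, SE 0.20). Nfkbia, the inhibitor of NF-kB, was lower on average (-0.63), as was Il6ra, the interleukin 6 receptor (-0.85), both with overlapping groups. Neutrophil markers were near the limit of detection, at 1.67 to 3.70 CPM summed in naive and 2.49 to 6.07 CPM in PP libraries.

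Extracellular matrix genes were higher on average in 37 of the 43 members tested, with a median of 0.27, close to the WT median of 0.26. At an unadjusted p under 0.05, 13 were higher and 0 lower, and without the outer-row libraries 9 were higher. The median was 0.26 without the outer-row libraries and 0.18 within plate column 2. Col8a1, a short-chain collagen that vascular and cardiac cells make on remodelling, read 87.3, 97.6, 115, 77.6 and 142 CPM in naive and 255, 165, 218 and 218 CPM in PP libraries. The PP libraries were all above the naive ones (1.04, SE 0.22, adjusted p = 0.16 in edgeR and 0.022 in DESeq2), and the WT change was of the same size, 1.02. Mmp3, the matrix protease stromelysin, was at 7.505, 3.57, 1.78, 3.41 and 3.27 CPM against 15.9, 19.3, 5.12 and 8.73 CPM, where PP 4 lay below the highest naive library (1.64, SE 0.34, adjusted p = 0.11). Fbln2, an elastic-fibre glycoprotein, did not overlap (27.4 ± 2.72 CPM (SD, n = 5) against 44.8 ± 6.46 CPM (SD, n = 4)).

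The matrix crosslinker Lox was at 2.92, 6.79, 9.14, 3.13 and 8.29 CPM in naive hearts and at 13.97, 12.1, 11.6 and 8.73 CPM in PP hearts, an average difference of 0.93 with overlap. Postn, a matricellular protein of activated fibroblasts, was at 57.9 and 55.05 CPM in PP 1 and PP 3 and at 118 and 130 CPM in PP 4 and PP 5, against 29.9 to 63.8 CPM in naive hearts, so that only PP 4 and PP 5 lay above the naive range. The chief fibrillar collagens differed little on average: Col1a1 by 0.10 (95% interval -0.37 to 0.57) and Col3a1 by 0.22 (-0.20 to 0.63). Of 13 fibroblast markers, some of which are matrix genes, 4 were higher at an unadjusted p under 0.05, and 0 without the outer-row libraries, where their median went from 0.30 to 0.17. Their summed level was 3517 to 4282 CPM in naive and 3556 to 4631 CPM in PP libraries.

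**Figure D3:**
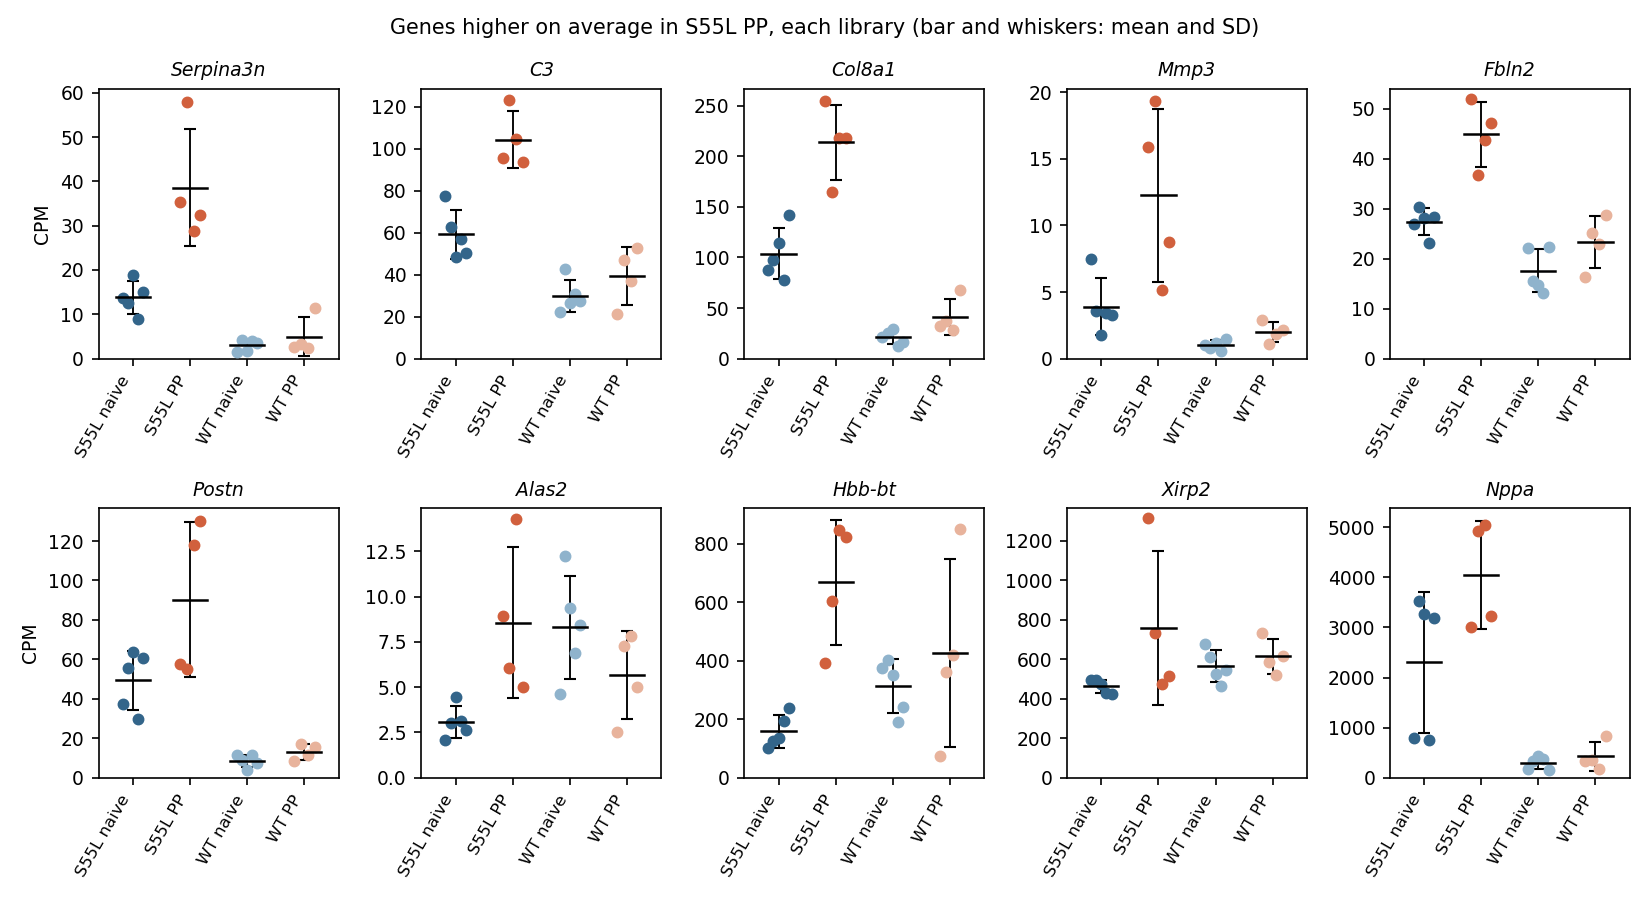
CPM in each S55L and WT library (points, with the mean as a bar and the SD as whiskers) of 10 genes that were higher on average in S55L after delivery. The S55L groups do not overlap for Serpina3n, C3, Col8a1, Fbln2, Alas2 and Hbb-bt, whereas for Mmp3, Postn, Xirp2 and Nppa they do.

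Transcripts of red cells and their precursors were higher on average in S55L PP hearts. Of 11 markers 6 were tested, and their median difference was 1.47 in S55L and -0.30 in WT, with 5 higher at an unadjusted p under 0.05 in S55L. Without the outer-row libraries the median was 1.82, and within plate column 2 it was 0.58. Alas2, the first enzyme of haem synthesis in erythroid cells, was at 2.08, 3.04, 4.46, 3.13 and 2.62 CPM in naive and 8.94, 6.07, 14.3 and 4.99 CPM in PP libraries. The groups did not overlap (1.48, SE 0.33, adjusted p = 0.16; 0.029 in DESeq2), and the S55L minus WT change was 2.06 (SE 0.50, adjusted p = 1.0). The beta-globin Hbb-bt was at 101, 125.8, 137, 194 and 240 CPM against 393, 605, 848 and 824 CPM, also without overlap (2.07, SE 0.49, adjusted p = 0.41; 0.0022 in voom). Reads of Hbb-bt and Hbb-bs, and of Hba-a1 and Hba-a2, come from near-identical copies and could be split between them by the counting. Over all the markers the summed CPM was 2357 ± 726 in naive (SD, n = 5) and 6899 ± 3070 in PP libraries (SD, n = 4), where it ran from 3695 to 10940, with PP 4 highest. In an exact two-sided permutation test this difference had p = 0.016, the smallest possible with 4 against 5 libraries. The adjusted p was 0.3 over 19 library measures. The part of blood left in the tissue was not tested.

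Genes that mark hypertrophy and failure were higher on average in 14 members and lower in 5. Of 19 tested, 6 were higher and 0 lower at an unadjusted p under 0.05, with a median of 0.37 in S55L and 0.59 in WT; without PP 1 there were 3 higher, and without both outer-row libraries 4 higher and 1 lower. The median was 0.30 without PP 1, 0.42 without both outer-row libraries and 0.15 within plate column 2. Nppa, the atrial natriuretic peptide, was at 791, 3538, 3272, 754 and 3180 CPM in naive and at 3007, 4925, 5037 and 3237 CPM in PP hearts. Naive 1 and naive 4 were low within their group, and the interval of the difference, -0.32 to 1.94 around 0.81, includes 0. Nppb, the brain natriuretic peptide, ran from 186 to 516 CPM in naive and from 138 to 689 CPM in PP hearts (0.03, SE 0.70). Xirp2, an intercalated disc protein, was at 1318 CPM in PP 1 and 734 CPM in PP 3 but at 473 and 514 CPM in PP 4 and PP 5, near the naive range of 423 to 495 CPM.

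The adult alpha-myosin Myh6 was at 8034, 8311, 14860, 10980 and 9717 CPM in naive and 7003, 8394, 8450 and 8288 CPM in PP libraries (-0.37, SE 0.17, adjusted p = 0.76). The fetal isoform Myh7 was at 551 to 1269 CPM and 693 to 1735 CPM (0.35, SE 0.39). Skeletal actin Acta1, another fetal-program gene, was at 1165 to 1519 CPM in naive hearts and at 1235, 726, 493 and 1176 CPM in PP 1, 3, 4 and 5 (-0.58, SE 0.36). In WT its difference was 0.82, and the S55L minus WT change was -1.40 (SE 0.51, adjusted p = 1.0). Kcnip2, a subunit of the transient outward potassium channel, was lower in every PP library than in any naive one (169 ± 11.9 CPM (SD, n = 5) against 127 ± 10.1 CPM (SD, n = 4), difference -0.41, adjusted p = 0.67). The adult sarcomere list (20 genes) had a median of -0.02 and the calcium handling and conduction list (24 genes) a median of 0.00, with Myh6 and Kcnip2 as the members lower at an unadjusted p under 0.05.

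The integrated stress response, which both groups share by genotype, had few members with a low p. Of 34 members tested, 1 was higher (Wars, the tryptophan tRNA ligase, by 0.48) and 0 lower at an unadjusted p under 0.05, and the median was -0.04. Ddit3, a member and panel gene, was not found by its symbol among the genes tested, so no difference is given for it. Symbols shared by several gene IDs were fitted with the ID added, and a search by symbol misses these. Whether Ddit3 is such a gene was not checked. It had 1831 reads over the naive and 1408 over the PP libraries, more than the tested member Fgf21 (141 and 56 reads). Without the outer-row libraries the median was -0.17, with 0 higher and 1 lower, and within plate column 2 it was 0.10. Atf4, its central factor, was at 306, 336, 291, 290.5 and 259 CPM in naive and 245, 254, 195 and 328 CPM in PP hearts. The groups overlapped, and the 95% interval of the difference was -0.59 to 0.16 around -0.22. Gdf15, the stress hormone, was at 196, 216, 105, 186 and 248 CPM against 253, 206, 100.2 and 389 CPM (0.32, interval -0.35 to 0.98), with the highest and the lowest value both among PP libraries. Fgf21, the other hormone of this response, ran from 3.79 to 9.59 CPM in naive and from 1.96 to 5.62 CPM in PP libraries (-0.71, interval -1.50 to 0.08). Mthfd2, the mitochondrial one-carbon enzyme, was at 261 to 407 CPM and 266 to 398 CPM (0.08, interval -0.29 to 0.46). For scale, Gdf15 was at most 2.87 CPM and Mthfd2 at most 6.64 CPM in any WT library. Over the serine, one-carbon and proline list, 0 of 17 genes had an unadjusted p under 0.05, and the median was 0.07.

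Genes that answer unfolded proteins in the endoplasmic reticulum were highest in PP 1, where the list lay 0.49 above the naive mean. The list (22 genes) had a median of 0.17 and 3 members higher at an unadjusted p under 0.05; without the outer-row libraries the median was 0.04, with 1 higher, and within plate column 2 it was -0.05. Manf, a secreted survival factor induced by reticulum stress, was at 6.25 to 12.9 CPM in naive and at 36.3, 16.6, 20.7 and 11.8 CPM in PP libraries (1.09, SE 0.27, adjusted p = 0.31). Calr, a calcium-binding chaperone, was at 184 CPM in PP 1 and 73.6 to 83.6 CPM in the other PP libraries, which lie inside the naive range of 52.8 to 85.1 CPM. P4hb, protein disulfide isomerase, was the exception: at 184, 154, 150 and 172 CPM against 118.5 to 125.8 CPM, each PP library exceeded the naive range (0.42, SE 0.15, adjusted p = 0.67). Mitochondrial chaperones and proteases (18 genes, median 0.01) and cytosolic heat shock genes (18 genes, median 0.09) had 0 members with an unadjusted p under 0.05.

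**Figure D4:**
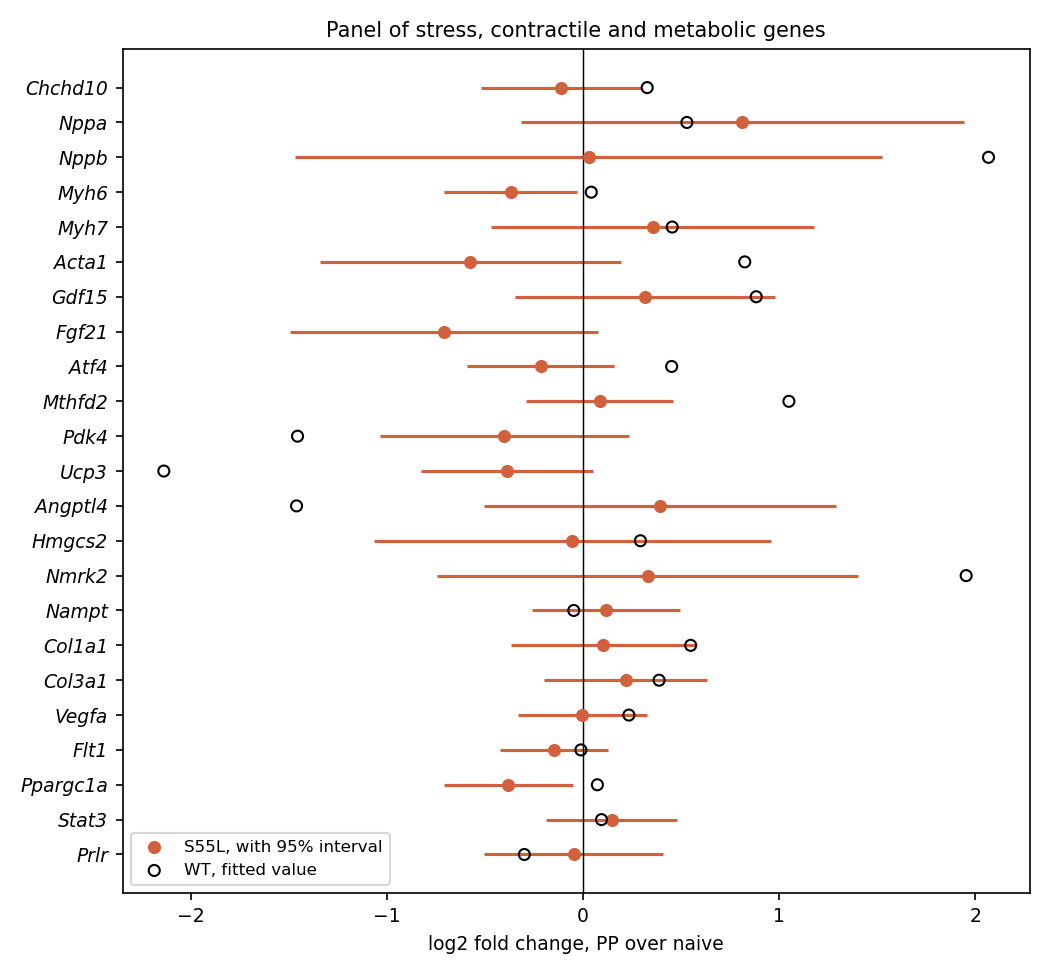
Log2 difference, PP minus naive, of the panel genes in S55L (filled, with the 95% interval) and in WT (open). Fgf21 has no WT point because it had no read in WT. In S55L the intervals of Myh6 and Ppargc1a lie below 0 and those of the other 21 genes include 0; the WT points of Ucp3, Pdk4 and Angptl4 lie well to the left of the S55L points.

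Genes of mitochondrial energy production were centred on 0. Median differences were -0.02 for 37 nuclear subunits of complex I, -0.05 for 40 subunits of complexes II to V, -0.01 for 76 mitochondrial ribosomal proteins, -0.09 for 21 genes of the tricarboxylic acid cycle and -0.10 for 19 genes of NAD metabolism. Of 12 mitochondrially encoded mRNAs tested, 0 had an unadjusted p under 0.05, and the median was -0.11. The median was 0.04 without the outer-row libraries and -0.55 within plate column 2. The most abundant, mt-Cytb, was at 26190 CPM in PP 1 and 32410 CPM in PP 5 but at 55150 and 67750 CPM in PP 3 and PP 4, around the naive range of 53720 to 62280 CPM. The share of mitochondrial RNA was likewise lowest in PP 1 and PP 5, and with 4 against 5 libraries its difference (12.3% ± 3.06 (SD, n = 4) against 14.4% ± 0.475 (SD, n = 5)) had an exact two-sided permutation p of 0.29, adjusted p = 0.60 over 19 library measures. The smallest p this design allows is 0.016. Nuclear subunits also differed by library: Atp5d was at 1475 CPM in PP 1 and at 540 to 641 CPM in the other PP libraries.

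Genes of fuel use had few members with a low p. Fatty acid uptake and beta-oxidation (30 genes) had a median of -0.02. At an unadjusted p under 0.05, 2.75% of all genes tested were lower, and 1 member of this list was. This was Acot2, a mitochondrial acyl-CoA thioesterase, at 597.1, 519, 652, 643 and 558 CPM in naive and 398, 488, 374 and 376 CPM in PP hearts. Its groups did not overlap (-0.54, SE 0.15, adjusted p = 0.53), and WT hearts gave -0.59. The PPAR and fasting list had a median of -0.20 in both genotypes (23 genes), with Plin5, which coats lipid droplets at mitochondria (-0.61, SE 0.20), and Ppargc1a, the coactivator of mitochondrial biogenesis (-0.38, SE 0.16), lower at an unadjusted p under 0.05.

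Ucp3, an inner-membrane carrier induced by fatty acids, had the lowest p of all genes for a difference between the changes in the 2 genotypes. In S55L it was at 16.5, 16.6, 18.9, 20.2 and 19.4 CPM in naive and 9.22, 10.3, 15.3 and 21.5 CPM in PP hearts, with overlap (-0.39, 95% interval -0.83 to 0.05). In WT it fell by 2.14 on the log2 scale (edgeR adjusted p = 7e-06), from 39.6 to 75.7 CPM in naive down to 10.6 to 16.0 CPM in PP hearts. The difference of the changes was 1.75 (SE 0.31), with an adjusted p of 0.074 in edgeR and 0.0029 in DESeq2. PP levels of the 2 genotypes overlapped, and it was the naive S55L level that lay below the naive WT one. Pdk4, the kinase that closes pyruvate dehydrogenase, had -0.40 in S55L and -1.46 in WT, and Angptl4, an inhibitor of lipoprotein lipase, had 0.39 and -1.46, both with an adjusted p of 1.0 for the difference of changes. Lgals4, a galectin that also fell in WT (-1.19, edgeR adjusted p = 0.00048), was at 7.71 to 13.4 CPM in S55L naive and 6.19 to 8.11 CPM in S55L PP hearts (-0.69, SE 0.20, adjusted p = 0.53).

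Angiogenic and protective factors known from studies of the peripartum heart had a median of -0.05 (23 genes tested). At an unadjusted p under 0.05, 1 was higher and 1 (Ppargc1a) lower, where 3.5% and 2.75% of all genes tested were. Vegfd, a lymphangiogenic growth factor, was the member higher at an unadjusted p under 0.05: at 5.42, 8.22, 6.24, 8.53 and 9.38 CPM in naive and 11.2, 13.7, 11.6 and 10.3 CPM in PP libraries, the groups did not overlap (0.63, SE 0.25, adjusted p = 0.72). The difference of Vegfa had a 95% interval of -0.33 to 0.32, and its receptor Flt1 differed by -0.15 (-0.42 to 0.13), Stat3 by 0.15 (-0.19 to 0.48) and the prolactin receptor Prlr by -0.05 (-0.50 to 0.41). Steroid, prolactin and growth hormone response genes (18 tested) had a median of 0.11. Glucocorticoid response genes had a median of -0.36 over 17 tested, 16 of them lower on average and 3 (Nfkbia, Dusp1, Klf9) at an unadjusted p under 0.05, against a median of 0.08 in WT. The naive libraries alone spanned 0.51 to -0.47 around their mean on this list. PP 5 lay at 0.04, and within plate column 2, where it is the only S55L PP library, the median was -0.09. The median was -0.36 without the outer-row libraries and -0.44 without PP 5. Circadian clock genes had a median of -0.12, and the time of death is not given in the sources used here.

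Cell-cycle genes were higher on average in 25 of 26 members, with a median of 0.38 in S55L and 0.41 in WT. At an unadjusted p under 0.05, 8 were higher, against 4 without PP 5 and 3 without both outer-row libraries. Over all genes tested, 187 were higher at that p without the outer-row libraries, against 418 with them. The median of the list was 0.27 without PP 5 and 0.38 without both outer-row libraries. Within plate column 2 the median was 0.56. Mcm2, a subunit of the replicative helicase, was at 1.25, 3.04, 2.01, 1.42 and 2.62 CPM in naive and 5.03, 5.39, 4.85 and 4.05 CPM in PP libraries, without overlap (1.19, SE 0.33, adjusted p = 0.51). Top2a, the topoisomerase of dividing cells, was at 3.54 to 12.04 CPM against 15.1, 8.31, 14 and 30.6 CPM, with PP 5 far above the rest. These are low levels, and which cells of the heart carry them was not tested.

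**Figure D5:**
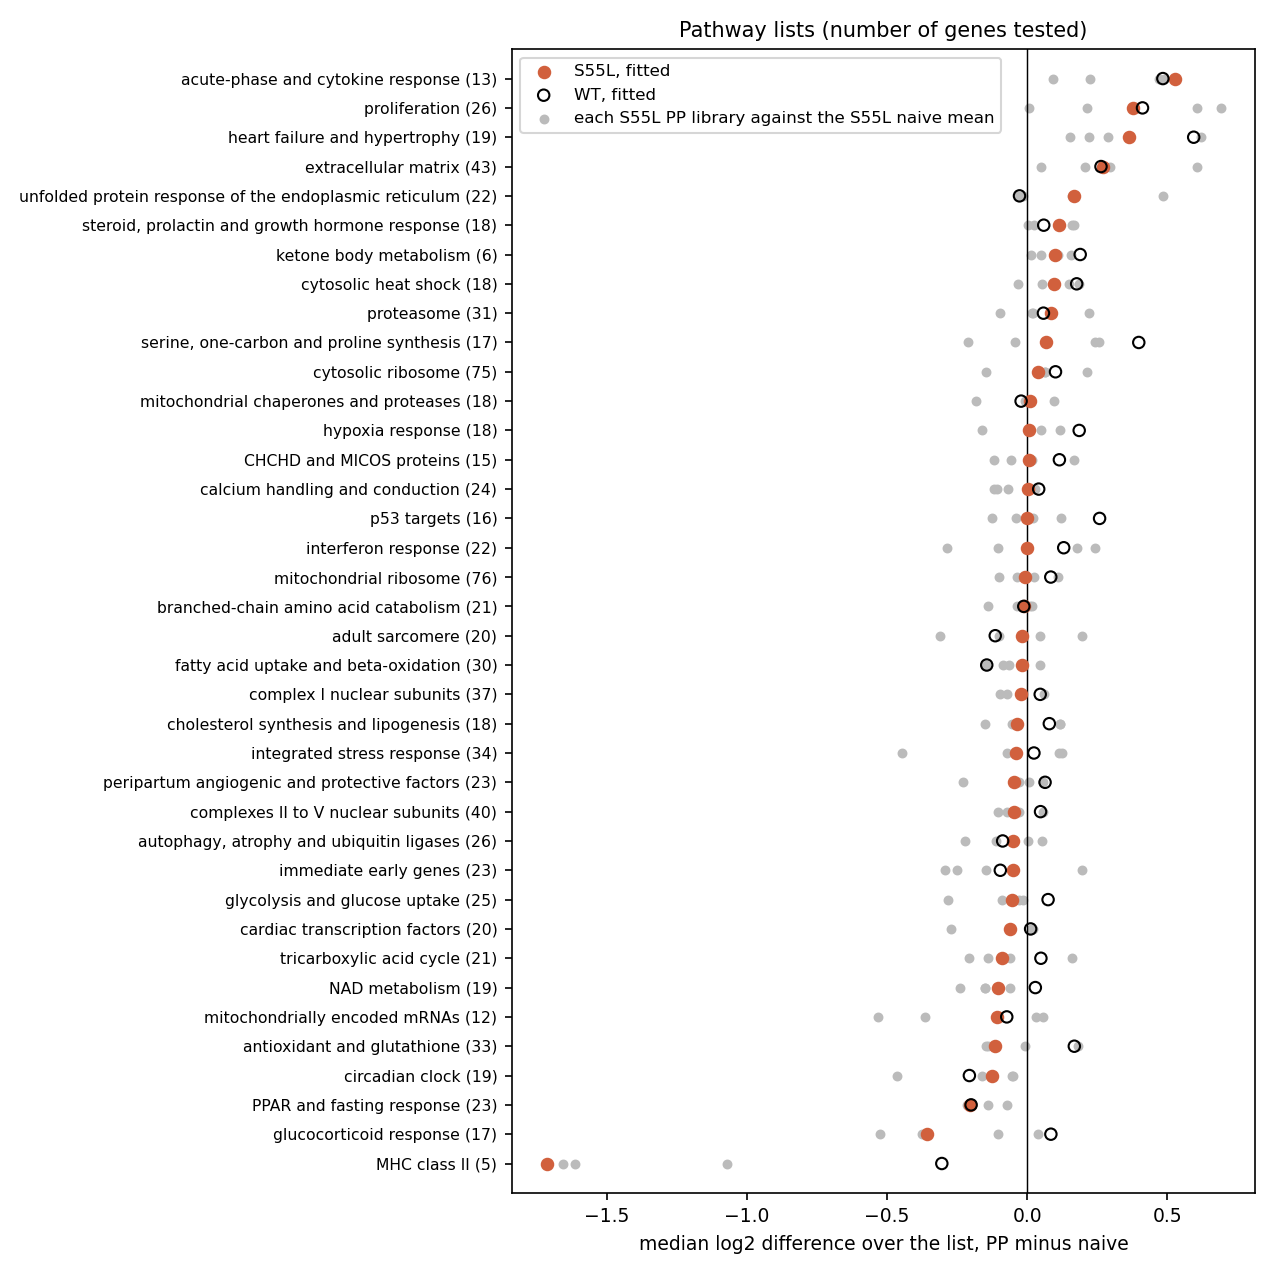
Median log2 difference, PP minus naive, over the tested members of each of the 38 pathway lists (cell type marker lists are not drawn) in S55L (filled) and WT (open), with each S55L PP library against the naive mean in grey. MHC class II lies apart at -1.72 in S55L; the lists at the top (acute phase, proliferation, hypertrophy, matrix) have WT medians of 0.26 to 0.59, and the spread of the grey points shows how far single libraries set a median.

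Shank3, Sox18, Cbx7 and Slc25a22 were among the other genes with low p-values. Shank3, a scaffold of the postsynaptic density, was at 15.6, 7.86, 9.81, 2.27 and 5.89 CPM in naive and 0.280, 2.02, 1.35 and 0.935 CPM in PP hearts. The lowest naive library was close to the highest PP one (-2.78, SE 0.58, adjusted p = 0.16; 0.00047 in DESeq2 and 0.27 in voom), and WT hearts gave -0.25. Sox18, a transcription factor of endothelial cells, was at 27.7, 29.3, 30.3, 15.3 and 25.3 CPM against 1.96, 13.7, 16.2 and 9.04 CPM, with PP 1 lowest (-1.31, SE 0.32, adjusted p = 0.38). The S55L minus WT change of Sox18 was -1.93 (SE 0.46, adjusted p = 1.0), while 12 endothelial markers had a median difference of 0.03 in S55L. Cbx7, a polycomb protein, was at 20.4 to 26.6 CPM in naive and 10.6, 13.0, 16.7 and 10.3 CPM in PP libraries (-0.87, SE 0.21, adjusted p = 0.21). Slc25a22, the mitochondrial glutamate carrier, was at 112 to 126.5 CPM against 41.4, 91.7, 80.0 and 72.3 CPM (-0.73, SE 0.20, adjusted p = 0.51). Neither gene's groups overlapped.

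Among the higher ones, Tecrl, a reductase of the endoplasmic reticulum linked to inherited arrhythmia, had the tightest groups: 20.9, 20.2, 18.7, 22.7 and 19.6 CPM in naive and 30.2, 30.6, 31.2 and 34.9 CPM in PP hearts. The groups were apart by more than their spread (0.63, SE 0.15, adjusted p = 0.21 in edgeR, 0.022 in DESeq2 and 0.040 in voom). Crlf2, a receptor chain for the cytokine TSLP, was at 13.4 to 15.4 CPM against 28.8, 22.9, 19.4 and 29.3 CPM (0.78, SE 0.20, adjusted p = 0.32). Ifi27l2a, an interferon-induced gene, was at 26.3 to 33.5 CPM in naive and at 40.8, 37.3, 39.9 and 88.5 CPM in PP libraries, with PP 5 over all others (0.79, SE 0.22, adjusted p = 0.53). The interferon list as such had a median of 0.00 over 22 genes, with 1 higher and 1 lower at an unadjusted p under 0.05.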

How the data were processed

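The authors deposited raw read counts for each gene. Per the submitters' processing notes they were made with Trimmomatic 0.39, STAR 2.7.0f and HTSeq 0.6.1 on GRCm39.p6; the libraries are Lexogen QuantSeq 3′ FWD, per the labels' protocols. The annotation release, strand setting and HTSeq mode are not given in the sources used here. HTSeq summary lines (30.8% to 41.7% of a library's reads) stayed out of library sizes. Symbols came from GENCODE M21 by Ensembl ID (51487 of 78258 IDs, 99.44% of reads on genes). Identical columns were counted once; no other pair had a chi-square per gene under 2.16. The 4 groups of the postpartum study (18 libraries) were fitted together with edgeR 4.0.16 in R 4.3.3 (filterByExpr, trimmed-mean scaling, glmQLFit robust, Benjamini-Hochberg adjustment, threshold 0.05); the common coefficient of variation was 0.199. Log2 differences are PP minus naive, and SE is their standard error. Differences of changes are the interaction contrast. Alternatives used DESeq2 1.42.0 and limma 3.58.1. The script was tested on simulated data. The comparison and the 52 gene lists were chosen with earlier results of these data known; 6 list symbols matched no gene, and the dendritic and B cell marker lists were added after the values were seen. The rule for named genes took called genes, up to 3 members of a list and a panel of 24; with no call, up to 12 genes a direction with the lowest p and a mean of at least 5 CPM, 5 a direction by interaction p, and list members with an unadjusted p under 0.05 were named instead. Intervals are 95% intervals of the fit.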

Additional observations from a re-analysis of the deposited data

Results flagged for a closer look

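Of 104 groups of libraries examined for the values printed above, 8 held 1 library set apart from its group by a gap that chance exceeds in about 1 in 20 groups. In S55L PP, PP 1 was the odd library for 3 genes: highest for Calr at 183.9 CPM, highest for Atp5d at 1475 CPM, and lowest for Myh6 at 7003 CPM, where the others were at 8288 to 8450 CPM. PP 5 was the odd one for 3: highest for Ifi27l2a at 88.54 CPM, for H2-DMa at 9.976 CPM and for Cd74 at 9.665 CPM, the last only because the other PP libraries were so close together (8.616 to 8.763 CPM). In WT, 1 PP library had Gdf15 at 2.869 CPM, where the others were at 0.5582 to 0.7254 CPM, and 1 naive library had 0 reads of Mthfd2, where the others were at 2.925 to 4.015 CPM.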

How the results depend on the processing

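The count of 0 called genes moved with the test and the filter. It became 3 with total counts as the scaling and 3 with only the compared groups fitted, 18 in DESeq2, 22 in limma voom (12 with only the compared groups), 37 with no filter on low counts and 10 with all deposited columns, where an identical column counts as a replicate. It was 1 with the plate column as a term, and 0 with DESeq2 size factors, without mitochondrially encoded genes and without the outer-row libraries. Leaving out 1 library at a time gave 0 to 2. Chosen after seeing the data, an outer plate row as a term gave 2 (Hba-a1 and Alas2). For the change in S55L minus that in WT, 0 became 5 with no filter, 1 in DESeq2, 2 with the plate column as a term and 2 with the outer row as a term. Leaving out 1 library gave 0 to 1. The cause was not tested. Deviations of same-numbered naive and PP libraries from their group means correlated with r from -0.165 to 0.248 over 4 pairs. So few pairs cannot show whether the numbers pair the libraries. The labels do not describe such a pairing, and the fit with the number as a replicate block called 0 genes. Of 136 genes looked at by name, 103 kept their sign under all alternatives run and 29 were called under at least 1. The adjusted p ranged from 3.7e-12 to 0.77 for Cd74, 1.5e-11 to 1.0 for H2-Eb1 and 6.7e-09 to 0.37 for Serpina3n. Of 47 list medians, 30 moved by more than the SD between the naive libraries under at least 1 alternative. Counting each list under each alternative, 118 of 1080 medians did so. With 4 PP libraries, of which 2 stand apart, the median SE of a log2 difference was 0.218.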

Other observations

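Single S55L PP libraries held the highest or the lowest of the 9 S55L levels of some genes; naive libraries did so for others. In PP 1, Pdlim7, a cytoskeletal adaptor, was at 236 CPM (others 34.5 to 99.7 CPM), Timm13, a small chaperone of the mitochondrial intermembrane space, at 164 CPM (30.6 to 49.5 CPM) and Acads, a beta-oxidation dehydrogenase, at 99.2 CPM (18.8 to 40.8 CPM), while the cold-inducible RNA-binding protein Cirbp was at 12.9 CPM (45.8 to 109.7 CPM). In PP 5 the antioxidant enzyme Txnrd1 was at 385 CPM (others 123 to 174 CPM), and Dgat2, which makes triglycerides, was at 87.9 CPM (155 to 406 CPM). PP 3 had the lowest level of the clock gene Per3, at 9.89 CPM (others 17.2 to 41.5 CPM), and of the clock-controlled gene Dbp, at 6.52 CPM, close to naive 5 at 7.20 CPM. PP 4 had the lowest level of Trib3, of the integrated stress response, at 21.3 CPM (others 40.7 to 69.6 CPM) and of Psat1, a serine synthesis enzyme, at 41.7 CPM (66.2 to 118.6 CPM). Over the 34 tested genes of the integrated stress response the median of PP 4 differed by -0.45 from the naive mean on the log2 scale, while other members were lowest in other libraries, such as Fgf21 in PP 1 at 1.96 CPM. These genes were chosen after their values were seen.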
